A study of Arabidopsis thaliana with 4 samples.

Results

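The regions described here are 104 intergenic stretches of 1 kb (bins) in the chromosome arms of Arabidopsis thaliana in which leaf mRNA-Seq reads were found where no gene is annotated. A bin was taken when it lay 200 bp or more from every gene of the TAIR10.1 annotation, when it fell in 45.5 Mb of the arms where the deposited read positions match TAIR10.1 within 30 bp, and when it held 5 or more reads summed over the 4 libraries. The arms held 45500 bins, of which 4912 were intergenic by this distance, and 104 of these (2.12%) reached 5 reads. The minimum selected the bins on measured reads, so their being read at all is no finding. A total of 23 bins stood just inside the minimum, at 5 reads, and 44 intergenic bins stood just outside it, at 4 reads, while 4228 intergenic bins held no read in any library.

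The 4 libraries, 1 per genotype, were of poly(A) RNA from leaves, taken at an age of 3 weeks from plants kept in long days. The genotypes were suvr5-1 ldl1-2 ldl2 (the triple mutant), ldl1-2 ldl2 (the double mutant), suvr5-1, a T-DNA insertion line, and wild-type Col-0, the ecotype that all of them share. Without replicates the spread between plants is unknown, and each test below compares a pair of libraries rather than genotypes. Reads on the 15452 genes of the arms numbered 2766271 in suvr5-1 ldl1-2 ldl2, 2402671 in ldl1-2 ldl2, 4251742 in suvr5-1 and 2747434 in Col-0, and levels are given as RPM, reads per 1000000 of these. Distinct positions made up 11.6% to 15.7% of the nuclear reads of a library. Col-0 stood apart in the 18S rRNA gene AT2G01010, which had 1581 to 1782 reads in the mutants, against 20568 in Col-0. This is 1 gene on chromosome 2. Chromosome 3, which also carries rRNA genes, took 54.9% of the nuclear reads in suvr5-1 ldl1-2 ldl2, 51.9% in ldl1-2 ldl2 and 44.6% in suvr5-1, against 52.8% in Col-0. The part of rRNA in that share was not tested. LDL2, one of the mutated genes, had 5 reads in suvr5-1 ldl1-2 ldl2 and 8 in ldl1-2 ldl2, against 26 in suvr5-1 and 25 in Col-0. The 7 leaf markers, genes of light-harvesting proteins, summed to 92215 to 154722 RPM, the 4 root markers to 0 to 0.706 and the 4 flower markers to 7.64 to 29.1.

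SUVR5 is a SET-domain protein with zinc fingers that acts in the dimethylation of histone H3 lysine 9, a mark of silent chromatin, and LDL1 and LDL2 are demethylases of histone H3 lysine 4, a mark of active genes. Poly(A) RNA is mostly the RNA of annotated genes, but RNA polymerase II also transcribes some sequence between genes, among it copies of transposable elements, precursors of small RNAs and stretches before or after genes. A read can also be placed between genes because its sequence stands at several places in the genome or is a simple repeat. The bins are therefore described by their reads per library, by the shape of the reads inside the bin and by the sequence under them.

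The sequences below carry the results. All are of TAIR10.1, plus strand, 5′ to 3′, and the reads were mapped to another assembly, so that a read's place on them is uncertain by the displacement of its window, between −25 and 17 bp. In the bin with most reads, between AT4G18280 and KAT2, capitals mark a word of 33 bases. The word also stands on chromosomes 2 and 3, 1312 bp past the 5.8S rRNA genes AT2G01020 and AT3G41979, at places where a gene is annotated. The sequence shown lies at chr4:10112416-10112488.
AT4G18280/KAT2: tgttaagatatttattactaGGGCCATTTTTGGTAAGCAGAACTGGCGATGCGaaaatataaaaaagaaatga
The bin with the next most reads, between AOX1D and AT1G09125, held its reads on chr1:11670555-11670763, which is shown whole.
AOX1D/AT1G09125: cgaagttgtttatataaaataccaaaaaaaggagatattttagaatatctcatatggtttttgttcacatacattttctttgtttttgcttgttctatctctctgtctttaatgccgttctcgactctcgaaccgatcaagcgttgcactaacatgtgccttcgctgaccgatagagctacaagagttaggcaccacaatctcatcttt
The 2 bins called higher in the triple mutant than in Col-0 are shown around the place where the reads of all 4 libraries together lay most densely. These sequences lie at chr5:8374391-8374605 and chr5:7112323-7112530.
TTG1/DMR6: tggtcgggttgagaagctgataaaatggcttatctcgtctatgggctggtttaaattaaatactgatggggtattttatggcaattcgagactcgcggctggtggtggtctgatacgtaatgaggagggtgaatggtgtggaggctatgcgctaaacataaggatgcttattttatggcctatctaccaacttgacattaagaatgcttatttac
AT5G20950/AO1: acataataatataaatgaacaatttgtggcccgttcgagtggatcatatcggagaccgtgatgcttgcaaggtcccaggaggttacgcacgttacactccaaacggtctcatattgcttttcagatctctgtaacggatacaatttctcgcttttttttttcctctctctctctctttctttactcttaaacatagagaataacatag
The next 6 stand for the 21 bins whose reads lay at a run of A or of T, in capitals, at chr5:4458570-4458632, chr2:56206-56276, chr1:10827303-10827369, chr5:1002478-1002547, chr1:6497754-6497823 and chr5:8711762-8711836 in this order.
AT5G13810/TBP1: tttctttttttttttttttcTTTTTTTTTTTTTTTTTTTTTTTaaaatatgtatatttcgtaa
AT2G01045/AT2G01037: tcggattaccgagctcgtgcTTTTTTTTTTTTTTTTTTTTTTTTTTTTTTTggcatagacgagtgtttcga
G3Pp3/HERK2: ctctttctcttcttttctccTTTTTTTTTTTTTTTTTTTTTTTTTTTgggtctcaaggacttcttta
TRFL10/HB51: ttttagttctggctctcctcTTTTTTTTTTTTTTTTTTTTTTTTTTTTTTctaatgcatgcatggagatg
MIF3/AT1G05443: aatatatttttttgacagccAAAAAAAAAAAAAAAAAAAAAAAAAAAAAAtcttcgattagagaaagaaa
ESE3/AT5G25195: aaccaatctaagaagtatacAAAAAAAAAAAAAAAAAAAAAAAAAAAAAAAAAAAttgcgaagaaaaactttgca
The last 2 stand for the 4 bins whose reads lay at a repeat of 2 bases, in capitals, at chr3:8487819-8487884 and chr4:1595617-1595710.
AT3G23620/IPT7: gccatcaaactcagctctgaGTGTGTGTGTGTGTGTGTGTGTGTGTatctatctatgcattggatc
AT4G03570/AT4G03580: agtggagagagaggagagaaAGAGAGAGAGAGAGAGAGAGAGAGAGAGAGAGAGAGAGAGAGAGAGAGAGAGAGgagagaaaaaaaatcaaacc

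Most of the 104 bins were read thinly. Their totals had a median of 7.5 reads, quartiles of 6 and 14 and a highest value of 1463, and 66 bins held under 10 reads while 20 held 20 or more. The 2 most read bins, AT4G18280/KAT2 and AOX1D/AT1G09125, took 64.5% of the 4456 reads of the 104 bins. The median bin had 1 read in suvr5-1 ldl1-2 ldl2, 3 in ldl1-2 ldl2 and 2.5 in suvr5-1, against 1 in Col-0. Reads were found in every library in 27 bins and in only 1 library in 33. In 11 of these 33 all reads shared 1 position. A bin read in 1 library passed the minimum through that library alone, so its difference between libraries follows from the rule. Bins below named by 2 genes are the bins between those genes.

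Summed over all 4912 intergenic bins, the level was lower in all 3 mutant libraries than in Col-0, beyond counting error in 2 of them, and this order rested on the 2 most read bins. The libraries held 1151 reads in suvr5-1 ldl1-2 ldl2, 1274 in ldl1-2 ldl2 and 1473 in suvr5-1, against 1556 in Col-0, or 416, 530, 346 and 566 RPM. The ratio to Col-0 was 0.735 (95% exact interval 0.680 to 0.793) for suvr5-1 ldl1-2 ldl2, 0.936 (0.869 to 1.01) for ldl1-2 ldl2 and 0.612 (0.569 to 0.657) for suvr5-1. Without the 2 most read bins the ratio became 1.19 (1.05 to 1.35) for suvr5-1 ldl1-2 ldl2, 1.90 (1.69 to 2.13) for ldl1-2 ldl2 and 0.923 (0.821 to 1.04) for suvr5-1. The double mutant was then the highest library. With each position and strand counted once, its ratio to Col-0 was likewise above 1, at 1.62 (1.42 to 1.85). These intervals, like all others here, cover counting error only, and reads that share a position need not be separate molecules. The triple mutant stood at 1.2 times the level of suvr5-1 (1.11 to 1.3) and 0.785 times that of ldl1-2 ldl2 (0.724 to 0.850), and without the 2 bins at 1.29 (1.15 to 1.44) and 0.628 (0.564 to 0.699).

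**Figure D1:**
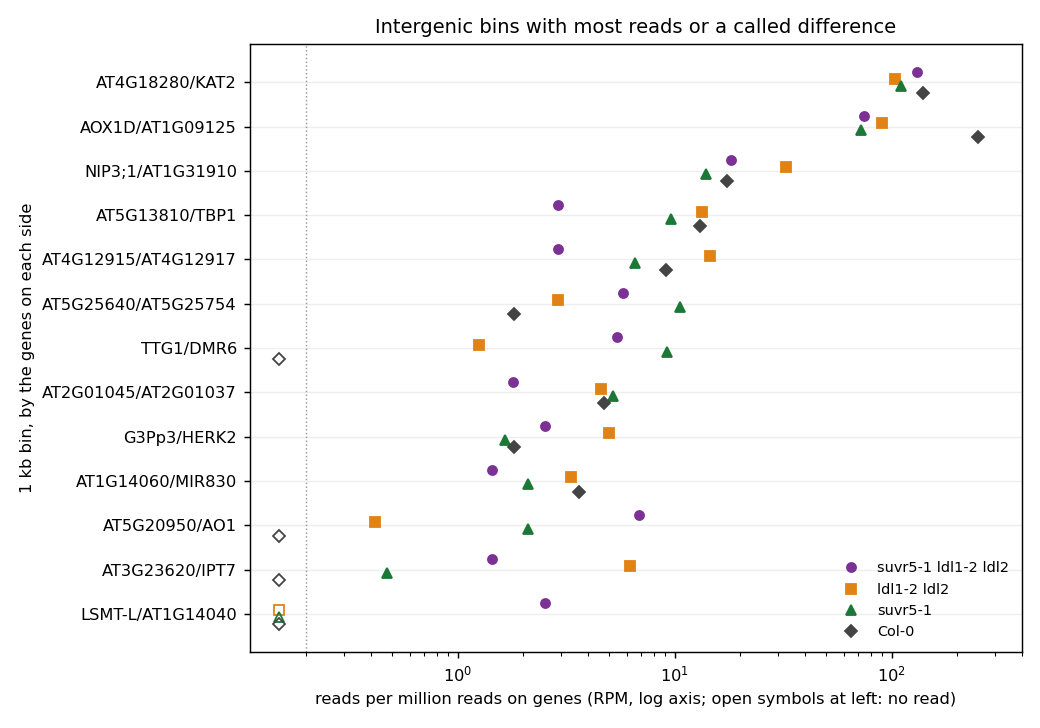
Level of the 13 intergenic bins with most reads or a called difference, in RPM on a log axis, with 1 symbol per library and open symbols at the left where a library held no read. Col-0 was the highest library at AOX1D/AT1G09125 and had no read at TTG1/DMR6, AT5G20950/AO1 and AT3G23620/IPT7.

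Which intergenic bins differ in suvr5-1 was asked with Fisher's exact test (two-sided) of each bin against the reads on genes, adjusted over all bins of the nuclear genome with a read in either library. A bin was called when its scaled ratio was over 4, or as far under 1, with an adjusted P under 0.01. Against a library without reads in the bin the ratio has no upper end and counted as over 4, so such a call rests on the P alone. In suvr5-1 against Col-0, 2 of the 80 members tested were called higher (2.50%), against 1.74% of all 61172 bins. No member was called lower, against 2.11% of all bins, although 18 members in either direction had an unadjusted P under 0.05. A bin without reads in Col-0 needed at least 15 reads in suvr5-1 to be called, a number that most members did not hold.

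TTG1/DMR6 was 1 of the 2. TTG1 encodes a WD40 protein of trichome and anthocyanin formation, and DMR6 an oxygenase that inactivates salicylic acid and limits defense. The bin, chr5:8374001-8375000, lies before the 5′ start of both genes, 1153 bp from TTG1 and 3758 bp from DMR6. It held 15 reads in suvr5-1 ldl1-2 ldl2, 3 in ldl1-2 ldl2 and 39 in suvr5-1, against 0 in Col-0. All 3 mutant libraries thus held reads, and Col-0 held none. In suvr5-1 its level was 8.40 times what 3 reads in Col-0 would give (exact test, adjusted P = 1.13e-07), before the counting error of its own reads. The exact lower limit of its ratio to Col-0 was 6.51. The reads were spread over 30 positions, 8 of them in suvr5-1 ldl1-2 ldl2 and 21 in suvr5-1. The densest stretch, chr5:8374421-8374546 within the sequence shown above, held 22 reads of suvr5-1, 3 of ldl1-2 ldl2 and 0 of suvr5-1 ldl1-2 ldl2. Reads of the triple mutant lay elsewhere in the bin, 1 of them at position 573, counted from 0, inside the sequence shown. At positions 564 to 650 of the bin, 87 bases matched the mitochondrial genome and AT2G07652 on chromosome 2 at 98.9% identity. The bin on the TTG1 side, 153 bp from that gene and therefore not a member, held 33 reads in suvr5-1 ldl1-2 ldl2, 6 in ldl1-2 ldl2 and 5 in suvr5-1, against 0 in Col-0. DMR6 itself had 603 RPM in suvr5-1 ldl1-2 ldl2, 175 in ldl1-2 ldl2 and 152 in suvr5-1, against 16.4 in Col-0. TTG1 had 102, 72.4 and 65.9 RPM in the mutants in this order, against 69.2 in Col-0. Whether reads of the bin and of DMR6 belong to one transcript was not tested.

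The other was AT5G25640/AT5G25754, at chr5:8952001-8953000, before the 5′ start of both genes and 374 bp from the nearer. It held 16 reads in suvr5-1 ldl1-2 ldl2, 7 in ldl1-2 ldl2 and 45 in suvr5-1, against 5 in Col-0. The level in suvr5-1 was 5.82 times Col-0 (2.32 to 18.8, adjusted P = 0.000104, exact test). The triple mutant, at 3.18 times Col-0 (1.11 to 11.1), was not called, nor was it against suvr5-1, at 0.546 times its level (0.288 to 0.986, adjusted P = 0.108, exact test). Of the 45 suvr5-1 reads, 41 lay in the first 150 bp of the bin, on the side of AT5G25640, a gene with at most 5 reads in any library. Bases 14 to 330 of the bin matched the locus of AT5G25640 at 83.3% identity, and the placing of reads between the copies was not tested. The bin on that side overlaps the gene and held 102 reads in suvr5-1 ldl1-2 ldl2, 57 in ldl1-2 ldl2 and 99 in suvr5-1, against 51 in Col-0.

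In ldl1-2 ldl2 against Col-0, 1 of 83 members was called higher (1.2%), against 4.08% of all 60888 bins. None was called lower, against 2.11% of all bins, and 28 members had an unadjusted P under 0.05 in this exact test. The called bin was AT3G23620/IPT7 at chr3:8487001-8488000, 694 bp before the start of IPT7, an enzyme of cytokinin synthesis. It held 4 reads in suvr5-1 ldl1-2 ldl2, 15 in ldl1-2 ldl2 and 2 in suvr5-1, against 0 in Col-0. The double mutant had most of the reads and the others few. The level in ldl1-2 ldl2 was 5.72 times what 3 reads in Col-0 would give (adjusted P = 0.000124, exact test), with an exact lower limit of 4.1. All 21 reads had their leftmost position between 834 and 848 of the bin, counted from 0, at the GT repeat of 26 bases printed above. IPT7 had no more than 2 reads in any library.

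In suvr5-1 ldl1-2 ldl2 against Col-0, 2 of 76 members were called higher (2.63%), against 3.87% of all 63204 bins, and 1 was called lower (1.32%), against 1.15%. One of the higher bins was TTG1/DMR6, at 4.97 times what 3 reads in Col-0 would give (adjusted P = 0.000557, exact test), with an exact lower limit of 3.56, under the 4-fold limit. The same Col-0 library stands behind both comparisons of that bin.

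The other was AT5G20950/AO1, at chr5:7112001-7113000. It lies 547 bp before the start of AT5G20950, which was read in every library, and 3454 bp before that of AO1, an aldehyde oxidase. It held 19 reads in suvr5-1 ldl1-2 ldl2, 1 in ldl1-2 ldl2 and 9 in suvr5-1, against 0 in Col-0. Both libraries with the suvr5-1 allele held 9 or more reads, and the others at most 1. The level in suvr5-1 ldl1-2 ldl2 was 6.29 times what 3 reads in Col-0 would give (adjusted P = 4.43e-05, exact test), with an exact lower limit of 4.64. It was 16.5 times that in ldl1-2 ldl2 (2.62 to 686, adjusted P = 0.00109, exact test). Against suvr5-1 it was 3.24 times as high (1.40 to 8.14, adjusted P = 0.0149, exact test) and not called. In suvr5-1 against Col-0 the bin was not called either (adjusted P = 0.0633, exact test). AO1 had 112 RPM in suvr5-1 ldl1-2 ldl2, 15.8 in ldl1-2 ldl2 and 10.6 in suvr5-1, against 47.3 in Col-0. AO1 and the bin were thus not ordered alike. AT5G20950, the nearer gene, had 332 RPM in suvr5-1 ldl1-2 ldl2, 219 in ldl1-2 ldl2 and 259 in suvr5-1, against 197 in Col-0. Its libraries stood in the same order as those of the bin. Whether reads of the bin and of AT5G20950 belong to one transcript was not tested.

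**Figure D2:**
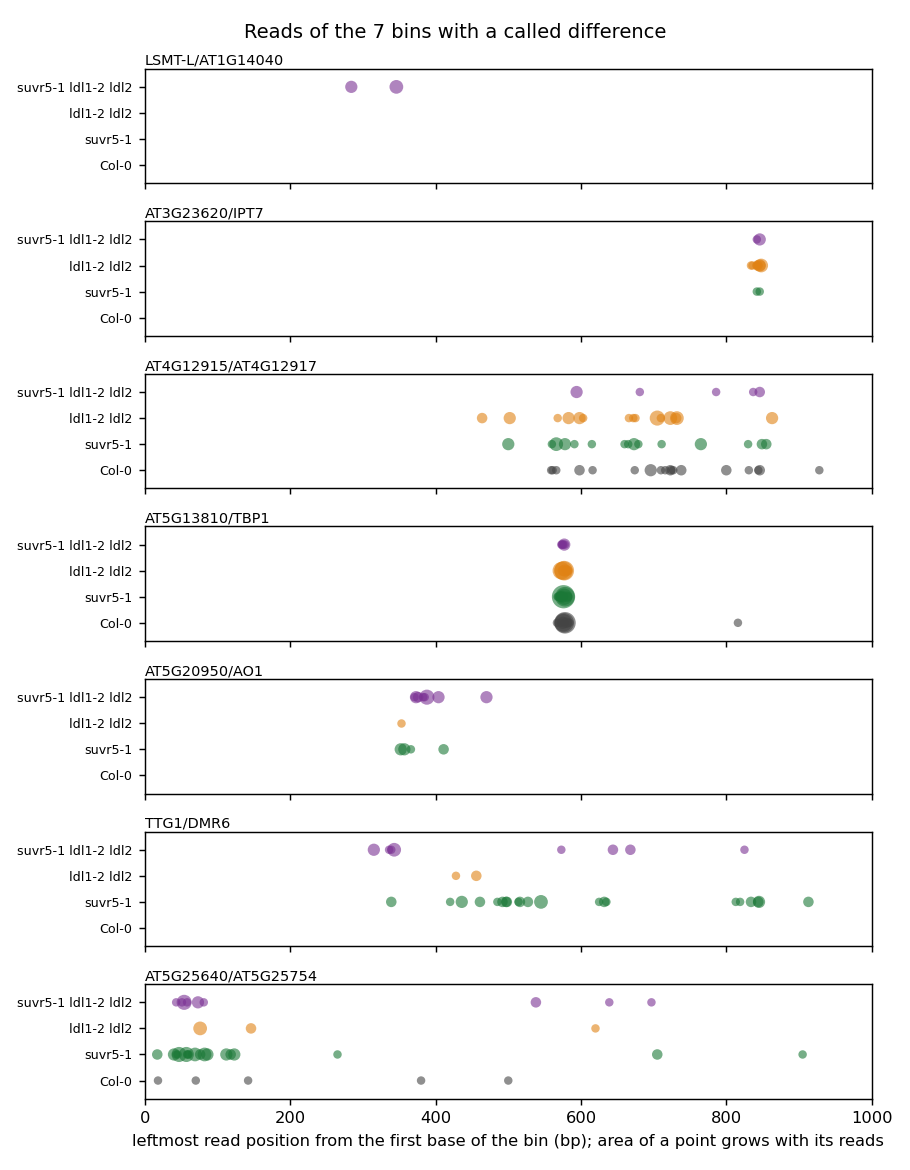
Leftmost read positions in the 7 bins with a called difference, in bp from the first base of the 1 kb bin, with 1 row per library and points whose area grows with the reads at a position. Reads of TTG1/DMR6 and AT4G12915/AT4G12917 were spread widely, while those of AT3G23620/IPT7 and nearly all of AT5G13810/TBP1 stood at 1 place.

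The bin called lower was AT5G13810/TBP1, at chr5:4458001-4459000, 981 bp past the 3′ end of AT5G13810 and 1839 bp before TBP1, which encodes a telomere-binding protein. It held 8 reads in suvr5-1 ldl1-2 ldl2, 32 in ldl1-2 ldl2 and 41 in suvr5-1, against 36 in Col-0. The triple mutant was the single low library. Its level was 0.221 times Col-0 (0.0886 to 0.483, adjusted P = 0.00015) and 0.217 times ldl1-2 ldl2 (0.0864 to 0.481, adjusted P = 0.00021), both by the exact test. Against suvr5-1 the ratio was 0.300 (0.121 to 0.648, adjusted P = 0.00396, exact test), short of the 4-fold limit. The middle 90% of the reads spanned 8 bp at the run of 23 T printed above. The genes on either side were not ordered in this way. AT5G13810 had 121 RPM in suvr5-1 ldl1-2 ldl2, 122 in ldl1-2 ldl2 and 62.1 in suvr5-1, against 78.6 in Col-0.

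Set against the less mutated lines, the triple mutant had few further calls. Against suvr5-1, 1 of 79 members was called higher (1.27%), against 4.76% of all 62910 bins, and none lower, against 1.16% of all bins, with 17 members at an unadjusted P under 0.05 in the exact test. The called bin, LSMT-L/AT1G14040, held 7 reads at 2 positions in the triple mutant and none elsewhere (adjusted P = 0.00795, exact test). It passed the minimum through that library alone, and its level was 3.59 times what 3 reads in suvr5-1 would give, with an exact lower limit of 2.22, so that neither value reached 4. Against ldl1-2 ldl2, 1 of 88 members was called higher (1.14%), against 3.83% of all 62918 bins. It was AT5G20950/AO1. A further 2 were called lower (2.27%), against 2.56%.

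Of the lower ones, AT5G13810/TBP1 is described above and the other was AT4G12915/AT4G12917, at chr4:7561001-7562000, between a pseudogene and a noncoding RNA gene. It held 8 reads in suvr5-1 ldl1-2 ldl2, 35 in ldl1-2 ldl2 and 28 in suvr5-1, against 25 in Col-0. Again the triple mutant was the low library, at 0.199 times ldl1-2 ldl2 (0.0796 to 0.436, adjusted P = 4.84e-05, exact test). Here the reads were spread over 48 positions. AT4G12917, whose 3′ end lies 1156 bp from the bin, had 6.51 RPM in suvr5-1 ldl1-2 ldl2, 30.8 in ldl1-2 ldl2 and 21.9 in suvr5-1, against 31.7 in Col-0. AT4G12917 and the bin thus shared their lowest library. The pseudogene AT4G12915, 1228 bp from the bin on the other side, went the other way, with 7 reads in suvr5-1 ldl1-2 ldl2 and none in any other library. Part of the bin, 471 bases, resembled a transcribed pseudogene on chromosome 3 at 87.0% identity, and 7 such matches were found in the genome.

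On this grid of bins no intergenic bin was called in the same direction in all 3 mutants. With bins starting 500 bp later, 1 was called higher in all 3, at chr5:3110501-3111500 and 444 bp from CYP78A7, a cytochrome P450 gene. It held 16 reads in suvr5-1 ldl1-2 ldl2, 18 in ldl1-2 ldl2 and 24 in suvr5-1, against 0 in Col-0, at 3 positions in all (adjusted P of at most 0.0003, exact test). On the main grid these reads fell in a bin that overlaps CYP78A7 and was therefore left out. With each position and strand counted once, only TTG1/DMR6 in suvr5-1 stayed called, and with an assumed dispersion of 0.1 between plants, the beta-binomial test called no bin in any comparison. Among the members tested, the scaled level was higher in the mutant than in Col-0 in 32 and lower in 44 for suvr5-1 ldl1-2 ldl2, higher in 56 and lower in 27 for ldl1-2 ldl2, and higher in 42 and lower in 38 for suvr5-1. Members without a Col-0 read numbered 23 for suvr5-1 ldl1-2 ldl2, 30 for ldl1-2 ldl2 and 27 for suvr5-1. Those without a read in the mutant numbered 19, 13 and 14 in this order. Bins read in 1 library alone are among them, and their direction follows from the rule. The counts are therefore a description with no test, and the 3 comparisons share the Col-0 library.

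What the rule did not use, and what set part of the bins apart, was a long run of 1 base. The longest run of A or of T was at least 25 bases in 24 of the 4912 intergenic bins, and 16 of these 24 were members (66.7%, 95% Wilson interval 46.7% to 82.0%). Among bins with a longest run of 20 to 24 bases the share was 5.26% (2.27% to 11.7%), and below 20 bases it lay between 1.57% and 1.83%. In all 16 bins with a run of 25 bases or more, most reads lay at the run.

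**Figure D3:**
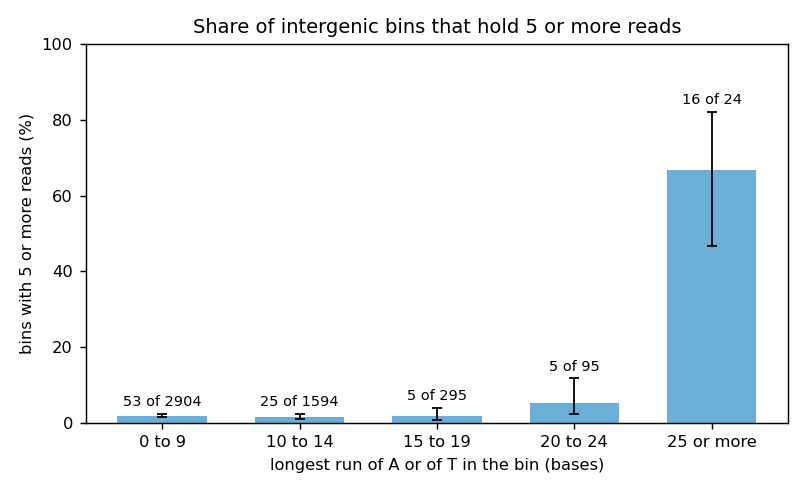
Share of intergenic bins with 5 or more reads, in percent, by the longest run of A or of T in the bin, with 95% Wilson intervals and the number of bins above each bar. The share was 66.7% for runs of 25 bases or more and 5.26% or less for shorter ones.

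To describe this, the 104 bins were sorted by the shape of their reads, a choice made after the values were seen. In 21 bins at least 50% of the leftmost read positions lay between 60 bp before and 30 bp past a run of 15 or more A or T. In 4 more they did so at a 2-base repeat of 16 bp or more. In 19 others the middle 90% of the reads spanned at most 20 bp, and the remaining 60 were spread more widely, with a median span of 152 bp. The runs of the 21 bins were 16 to 37 bases long, 13 of A and 8 of T on the plus strand, and in 17 of them every read lay at the run. Of their 447 reads, 348 had their leftmost position before the first base of the run (77.9%), 97 inside it and 2 past it. The median leftmost position was 8 bp before that base. The uncertainty of positions, up to 25 bp, is larger than that distance.

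**Figure D4:**
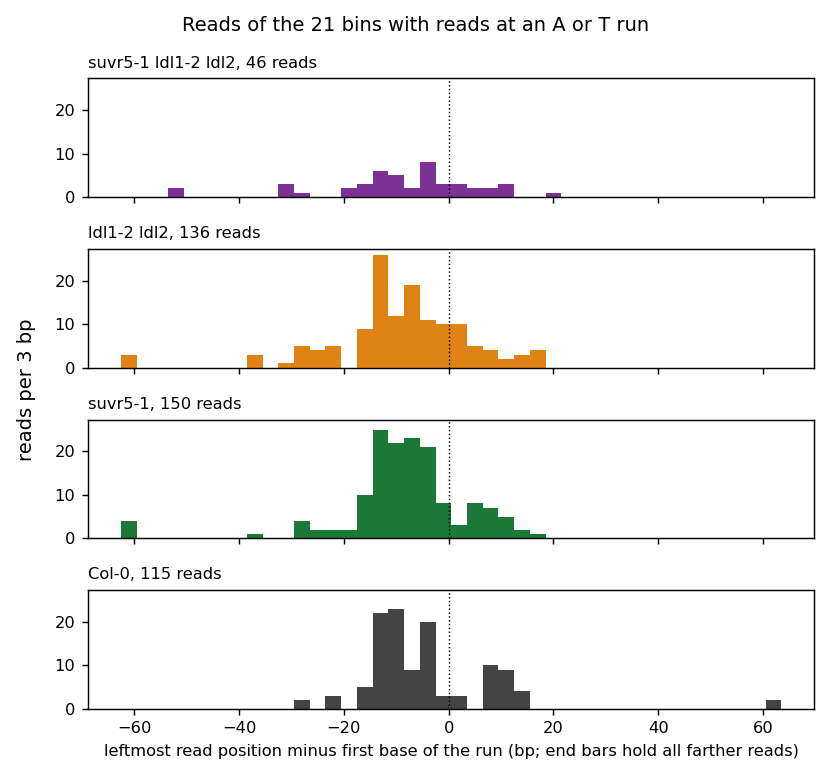
Leftmost read positions in the 21 bins with reads at an A or T run, in bp from the first base of the run, as reads per 3 bp in each library. In each library most reads had their leftmost position within 35 bp before the run. The triple mutant had 46 reads, the double mutant 136 and suvr5-1 150.

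The 21 bins were low in the triple mutant. They held 46 reads in suvr5-1 ldl1-2 ldl2, 136 in ldl1-2 ldl2 and 150 in suvr5-1, against 115 in Col-0, or 16.6, 56.6, 35.3 and 41.9 RPM. The scaled level was lower in suvr5-1 ldl1-2 ldl2 than in Col-0 in 17 of the 21 and higher in 3. TRFL10/HB51, beside a gene of the TRF-like family and a homeodomain gene, held 1 read in suvr5-1 ldl1-2 ldl2, 11 in ldl1-2 ldl2 and 10 in suvr5-1, against 9 in Col-0. ESE3/AT5G25195 held 1, 6 and 6 reads in the mutants in this order, against 8 in Col-0. In both, the triple mutant was the low library, at 0.361 RPM, and the others had 2.35 to 4.58 RPM at TRFL10/HB51 and 1.41 to 2.91 RPM at ESE3/AT5G25195. The 2-base repeats went another way, with 7 reads in suvr5-1 ldl1-2 ldl2, 31 in ldl1-2 ldl2 and 8 in suvr5-1, against 4 in Col-0. Of the ldl1-2 ldl2 reads, 6 came from PAP15/AT3G07140, which was read in that library alone and passed the minimum through it. AT4G03570/AT4G03580, with the AG repeat of 54 bases, held 1, 10 and 6 reads in the mutants in this order, against 1 in Col-0. Since the groups of bins were formed after seeing the reads, no test is given for them.

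**Figure D5:**
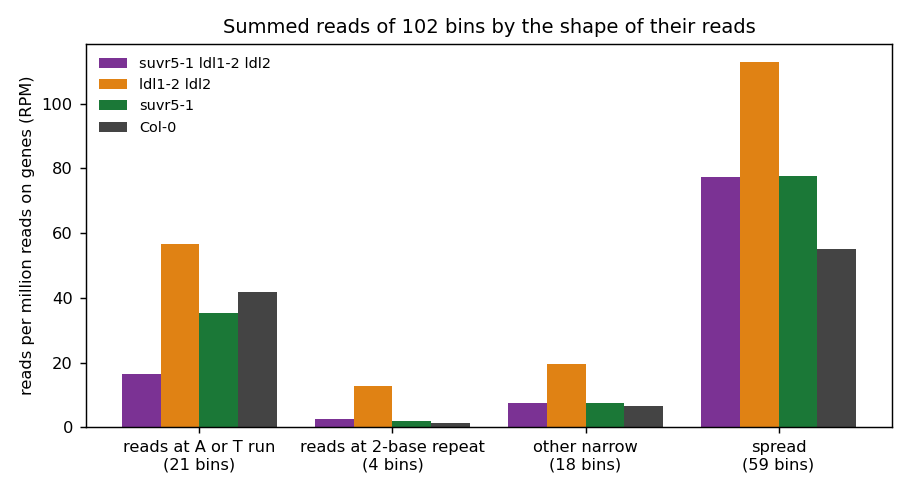
Summed level of 102 intergenic bins, without the 2 most read ones, in RPM, by the shape of their reads and by library. The triple mutant was the lowest library at A or T runs (16.6), and the double mutant was the highest in each of the 4 groups (12.9 to 113). In 11 of the other narrow bins all reads stood at 1 position of 1 library, so their differences follow from the minimum.

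The 59 spread bins other than AOX1D/AT1G09125 held 214 reads in suvr5-1 ldl1-2 ldl2, 271 in ldl1-2 ldl2 and 330 in suvr5-1, against 151 in Col-0, or 77.4, 113, 77.6 and 55.0 RPM. All 3 mutant libraries were above Col-0. TTG1/DMR6 and AT5G25640/AT5G25754, called higher in suvr5-1 than in Col-0, are among them, and suvr5-1 was the highest library in both. Without both the levels were 66.2 RPM in suvr5-1 ldl1-2 ldl2, 109 in ldl1-2 ldl2 and 57.9 in suvr5-1, against 53.1 in Col-0. The spread bins called in other comparisons, AT5G20950/AO1, AT4G12915/AT4G12917 and LSMT-L/AT1G14040, were kept. Without TTG1/DMR6 and AT5G25640/AT5G25754 the ratio of suvr5-1 to Col-0 was 1.09, and that of ldl1-2 ldl2 was 2.04. Some spread bins passed the minimum through 1 library alone, such as NAC007/AT1G04937 with 6 reads in ldl1-2 ldl2 and WRKY61/ICS2 with 5 in suvr5-1. Their differences follow from the rule, and the ratios are given as a description with no test.

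The bin with most reads was AT4G18280/KAT2 at chr4:10112001-10113000, 1793 bp before KAT2, a potassium channel gene. It held 361 reads in suvr5-1 ldl1-2 ldl2, 249 in ldl1-2 ldl2 and 469 in suvr5-1, against 384 in Col-0. After scaling, suvr5-1 ldl1-2 ldl2 stood at 0.934 times Col-0 (0.806 to 1.08). The level was 0.741 times Col-0 in ldl1-2 ldl2 (0.630 to 0.872, adjusted P = 0.00192, exact test). In suvr5-1 it was 0.789 times Col-0 (0.688 to 0.906, adjusted P = 0.00541, exact test). The double mutant and suvr5-1 were thus lower beyond counting error, but short of the 4-fold limit. The 1463 reads stood at 9 positions, and the middle 90% spanned 6 bp, at the word of 33 bases printed above. The copy of the word on chromosome 2 had no read within 60 bp in any library, and that on chromosome 3 lies outside the arms examined. KAT2 had 7.95 RPM in suvr5-1 ldl1-2 ldl2, 0 in ldl1-2 ldl2 and 3.29 in suvr5-1, against 2.18 in Col-0.

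AOX1D/AT1G09125, at chr1:11670001-11671000, was a bin in which Col-0 was the high library. AOX1D encodes an alternative oxidase of mitochondria and AT1G09125 is an RNA gene whose 3′ end lies 498 bp from the bin. The bin held 205 reads in suvr5-1 ldl1-2 ldl2, 216 in ldl1-2 ldl2 and 307 in suvr5-1, against 684 in Col-0. The 3 mutant libraries lay close together, at 74.1 RPM in suvr5-1 ldl1-2 ldl2, 89.9 in ldl1-2 ldl2 and 72.2 in suvr5-1, against 249 in Col-0. The ratios were 0.298 (0.253 to 0.348) for suvr5-1 ldl1-2 ldl2, 0.361 (0.308 to 0.421) for ldl1-2 ldl2 and 0.290 (0.253 to 0.332) for suvr5-1. All were beyond counting error, with an adjusted P of at most 1.4e-42 in the exact test, but short of 4-fold, so the bin was not called. The reads covered 78 positions, and the middle 90% spanned 59.9 bp. AT1G09125 had 44.8 RPM in suvr5-1 ldl1-2 ldl2, 13.3 in ldl1-2 ldl2 and 12.5 in suvr5-1, against 51.7 in Col-0, so the triple mutant did not stand with the other mutants there. AOX1D had 83.9 in suvr5-1 ldl1-2 ldl2, 9.99 in ldl1-2 ldl2 and 14.3 in suvr5-1, against 12.4 in Col-0. Col-0 was also the library with most reads on the 18S rRNA gene AT2G01010, and the part of that difference in this one was not tested.

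Of 4 other well-read bins, NIP3;1/AT1G31910, AT1G14060/MIR830 and AT2G01045/AT2G01037 resembled sequence elsewhere in the genome. NIP3;1/AT1G31910, at chr1:11454001-11455000, held 50 reads in suvr5-1 ldl1-2 ldl2, 78 in ldl1-2 ldl2 and 59 in suvr5-1, against 48 in Col-0. The double mutant was the high library, at 1.86 times Col-0 (1.28 to 2.72, adjusted P = 0.00445, exact test), below the 4-fold limit. Its reads covered 100 positions, and 842 of its bases matched a stretch of chromosome 5 with a transcribed pseudogene, AT5G14840, at 84.1% identity, with 19 such matches in all. AT1G14060/MIR830 held 4 reads in suvr5-1 ldl1-2 ldl2, 8 in ldl1-2 ldl2 and 9 in suvr5-1, against 10 in Col-0. It matched FUT9, a fucosyltransferase gene on the same chromosome, over 952 bases at 83.6% identity. AT2G01045/AT2G01037, with a run of 31 T, held 5 reads in suvr5-1 ldl1-2 ldl2, 11 in ldl1-2 ldl2 and 22 in suvr5-1, against 13 in Col-0. Its whole length matched the locus of AT4G06965, a lncRNA gene on chromosome 4, over 1004 aligned bases at 96.6% identity. There were 11 such matches in all, and the placing of reads between the copies was not tested. G3Pp3/HERK2 held 7, 12 and 7 reads in the mutants in this order, against 5 in Col-0. None of these 4 bins was called in any of the 5 comparisons. Both genes beside AT2G01045/AT2G01037 and both bins next to it had no read in any library.

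The 104 bins lay nearer to genes than the 4912 intergenic bins did, which is given as a description with no test. The nearest gene was 601 bp away at the median, against 775 bp in all intergenic bins, and 26.9% lay over 1 kb from every gene, against 39.0%. The nearest gene was protein coding for 80 of the 104 (76.9%, against 83.0%), a lncRNA gene for 9 (8.65%, against 7.90%), a pseudogene or transcribed pseudogene for 6 and a miRNA gene for 4 (3.85%, against 0.835%). The 4 bins beside miRNA genes had 10 to 31 reads, among them AT5G04270/MIR172b with 4 reads in suvr5-1 ldl1-2 ldl2, 2 in ldl1-2 ldl2 and 5 in suvr5-1, against 3 in Col-0. The bin was past the 3′ end of its nearest gene in 32 of the 104 (30.8%, against 35% of all intergenic bins). By the first letters of gene symbols, XTH cell wall enzymes stood beside 2 of the 104 bins, against 29 of the 4912, CYP cytochromes P450 beside 2, against 117, WRKY transcription factors beside 1, against 70, and ERF transcription factors beside 1, against 20. Ethylene response factors under other symbols, such as ESE1 and ESE3, are missed by this count. SAUR, CRK, EXP, UGT and RLP genes stood beside none, against 2 to 16 of all intergenic bins each, too few to read a difference from. GC content had a median of 30.4%, against 29.4%.

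The octamer TACTAGTA, which the zinc fingers of SUVR5 bind in vitro and which reads the same on both strands, stood in 1 of the 104 bins (0.962%), against 171 of the 4912 (3.48%). More than 50% of the 30-base words stood elsewhere in the genome in 5 bins (4.81%, against 6.09%). By stretch, members made up 2.07% of the intergenic bins of chromosome 1, 0.606% of the short stretch of chromosome 2, 2.93% of chromosome 3, 1.74% and 1.95% of the stretches of chromosome 4 and 2.12% of chromosome 5. Only 4 pairs of members were neighbours, so most members were isolated 1 kb bins.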

How the data were processed

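The authors selected poly(A) RNA, made mRNA-Seq libraries and mapped the reads, with Bowtie per the labels. They deposited 1 line per read with chromosome, strand and leftmost position, a table of positions of no further unit and no counts per gene. The assembly used for mapping is not given in the sources used here. The study names TAIR8 for the gene models of a browser view, and the positions are displaced from TAIR10.1. In windows of 250000 bp, the displacement from TAIR10.1 exon starts was −25 to 17 bp in the stretches used. Mapped reads numbered 10406023 to 15083462 per library.

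Reads were counted from these deposited positions in 1 kb bins without regard to strand. Bins were compared by Fisher's exact test with Benjamini-Hochberg adjustment (scipy 1.17.1). A check on simulated data placed changes only in bins with more reads than most members hold. It does not show how changes in thinly read bins are called. The study's methods give the cutoff as a log2 ratio over 4, while its results and supplementary tables give it as over 4 fold. A ratio over 4 was used here. Fold changes against no read use 3 reads, and intervals are exact binomial at 95%. Similar sequences were sought with blastn 2.17.0 (E-value at most 1e-10).

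The bins, the gene and marker lists and the tests were chosen with earlier results of these data known. Named are the 10 bins with most reads, and for each mutant against Col-0 the 5 called bins with highest and the 5 with lowest ratio among those with 20 or more reads. The other bins named were chosen after their values were seen, as were the groups by shape of the reads. Alternatives covered library size, repeated positions, the minimum, the distance to genes, the bin grid, a beta-binomial test and leaving out bins. Reads outside the stretches were used only for adjustment.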

Additional observations from a re-analysis of the deposited data

How the results depend on the processing

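Of the counts and ratios recomputed, 84 of 130 kept their direction, their side of the threshold or, for counts, stayed within 1.5 times. Part of these were fixed in advance. A call needs more reads than the minimum, and neither of the 2 most read bins was called. Dropping the minimum or leaving out these bins could therefore not change a count of calls. The summed ratios were the least stable. For ldl1-2 ldl2 against Col-0 the ratio of 0.936 turned to 1.62 with each position and strand counted once, 1.28 at 500 bp or more from genes, 1.40 with bins starting 500 bp later and 1.90 without the 2 most read bins. It was 0.801 over members alone and 0.881 without the bins of runs and repeats, both then below 1 beyond counting error. For suvr5-1 ldl1-2 ldl2 against Col-0 the ratio of 0.735 turned to 1.19 without the 2 most read bins and was no longer distinct from 1 with positions counted once (1.01), at 500 bp (0.993) or with shifted bins (1.00). For suvr5-1 against Col-0, 0.612 became 0.934 with positions counted once and 0.923 without the 2 bins. For the triple mutant against suvr5-1, 1.2 became 0.979 with all nuclear reads as library size, 1.08 with positions counted once and 1.01 over members alone.

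Calls were few under every setting. With each position and strand counted once, 1 bin stayed called, TTG1/DMR6 in suvr5-1, and all other counts were 0. The beta-binomial test with a dispersion of 0.1 called 0 bins in every comparison. At 500 bp from genes, suvr5-1 kept 1 higher call against Col-0 and the triple mutant 0 against suvr5-1. That last count was also 0 with all nuclear reads, with median-of-ratios size factors and with shifted bins. The triple mutant had 5 lower calls against ldl1-2 ldl2 with all nuclear reads, 6 with size factors, 7 with shifted bins and 1 without the bins of runs and repeats, and 1 lower call against suvr5-1 with all nuclear reads. With shifted bins, 1 bin near CYP78A7 was called higher in all 3 mutants, and there were 4 higher calls in ldl1-2 ldl2 against Col-0, 1 higher and 3 lower in the triple mutant, 1 lower in suvr5-1, and 0 higher in the triple mutant against ldl1-2 ldl2. Without the bins of runs and repeats, ldl1-2 ldl2 had 0 higher and the triple mutant 0 lower calls against Col-0, as the called bins were among those left out. The cause of the other changes was not tested. The last 2 settings that leave out bins were chosen after seeing the data. No paired analysis was possible because each genotype has 1 library and the labels carry no replicate numbers.

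Most members held under 10 reads, while a bin without reads in the compared library needed 7 to 15 reads to be called higher, depending on the comparison. Differences in most members were thus not detectable at this depth. Most reads repeat positions, and counts of reads overstate counts of molecules by an unknown factor. Positions are uncertain by up to 25 bp. How reads with several matches were placed is not given in the sources used here.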
